A study of Drosophila melanogaster with 20 samples.

Results

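EcR, the ecdysone receptor of the fruit fly, was mapped on chromatin, and the 8 sites it occupied in its own gene are described here, out of 3463 sites in all. A site belonged to the gene when its middle lay within the span of EcR or 2000 bp of either end. In dm6 the span runs on 2R from 6087873 to 6169087, over 81215 bp. The span of usp, the gene of EcR's partner protein, on X from 2038798 to 2042311, was searched in the same way and held no site. The 6 peak lists held 18 peaks with a summit at EcR, and none at usp.

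The libraries came from wings, legs and salivary glands dissected from female larvae of the wandering stage, labelled as 6 hours ahead of puparium formation. At this stage the future wings and legs are imaginal discs. All 12 anti-Flag libraries were from the genotype w; EcR-GFSTF / Df(2R)BSC313, with 2 replicates for each tissue in each of a supernatant and a pellet fraction. In this genotype EcR carries a tag of GFP, FlAsH, Streptactin, TEV and FLAG elements on 1 chromosome, and the other chromosome has a deletion on 2R. The 8 IgG libraries, 6 from wings of genotype + / +; + / + ; + / + and 2 from glands of the tagged genotype, were not analysed here. CUT&RUN uses an antibody to tether a nuclease, which releases short DNA fragments around the bound protein. The tag sits in the gene described here, and neither its place within EcR nor the extent of the deletion is stated in the labels. If the deletion takes in EcR, every anti-Flag library measured this gene on 1 chromosome of the pair. The genotype was the same in wing, leg and gland, but DNA copy number was not measured, and its effect was not tested. Binding tables hold no expression, so the tissues could not be checked by marker genes. The deposited files hold no value per library, so each value is the authors' own summary over libraries.

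EcR is a nuclear receptor for ecdysone, the steroid hormone that times moulting and metamorphosis, and it binds DNA together with Usp, the fly relative of the retinoid X receptors. The pair can repress its target genes without hormone and activate them with it. EcR is itself an ecdysone-inducible gene, and alternative promoters give isoforms that share the DNA-binding and hormone-binding domains but differ at the amino end. Wing and leg discs respond to the hormone by forming adult appendages, whereas the polyploid salivary gland first secretes glue and later dies.

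In the supernatant fraction the wing and leg lists each had 2 peaks in the EcR gene, and the gland list had 7. Among pellet lists, that of the wing had 2 peaks here, that of the leg 1 and that of the gland 4. Merged over tissues, the supernatant peaks gave 8 regions, numbered here 1 to 8 by coordinate. Region 2 had a peak in all 3 tissues, region 8 in wing and leg, and the other 6 in the gland alone. The pellet lists gave 5 of these regions, of which region 2 was again shared by all 3 tissues, region 8 was listed for the wing, and regions 3, 6 and 7 were listed for the gland. All 8 lay in the middle of the span, within 32945 bp, with 27661 bp below the first and 20609 bp above the last free of any site. Over both fractions, sites 1 and 3 to 7 had peaks in gland lists alone, as did 854 other sites of the 3463 in all. The lists come from merged replicates without replicate error, so their counts were not tested. With a −log10 q of 10 or more, the wing, leg and gland supernatant lists each kept 1 peak here. Judging by the peak names, the control of the gland lists was also IgG from the wing.

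**Figure D1:**
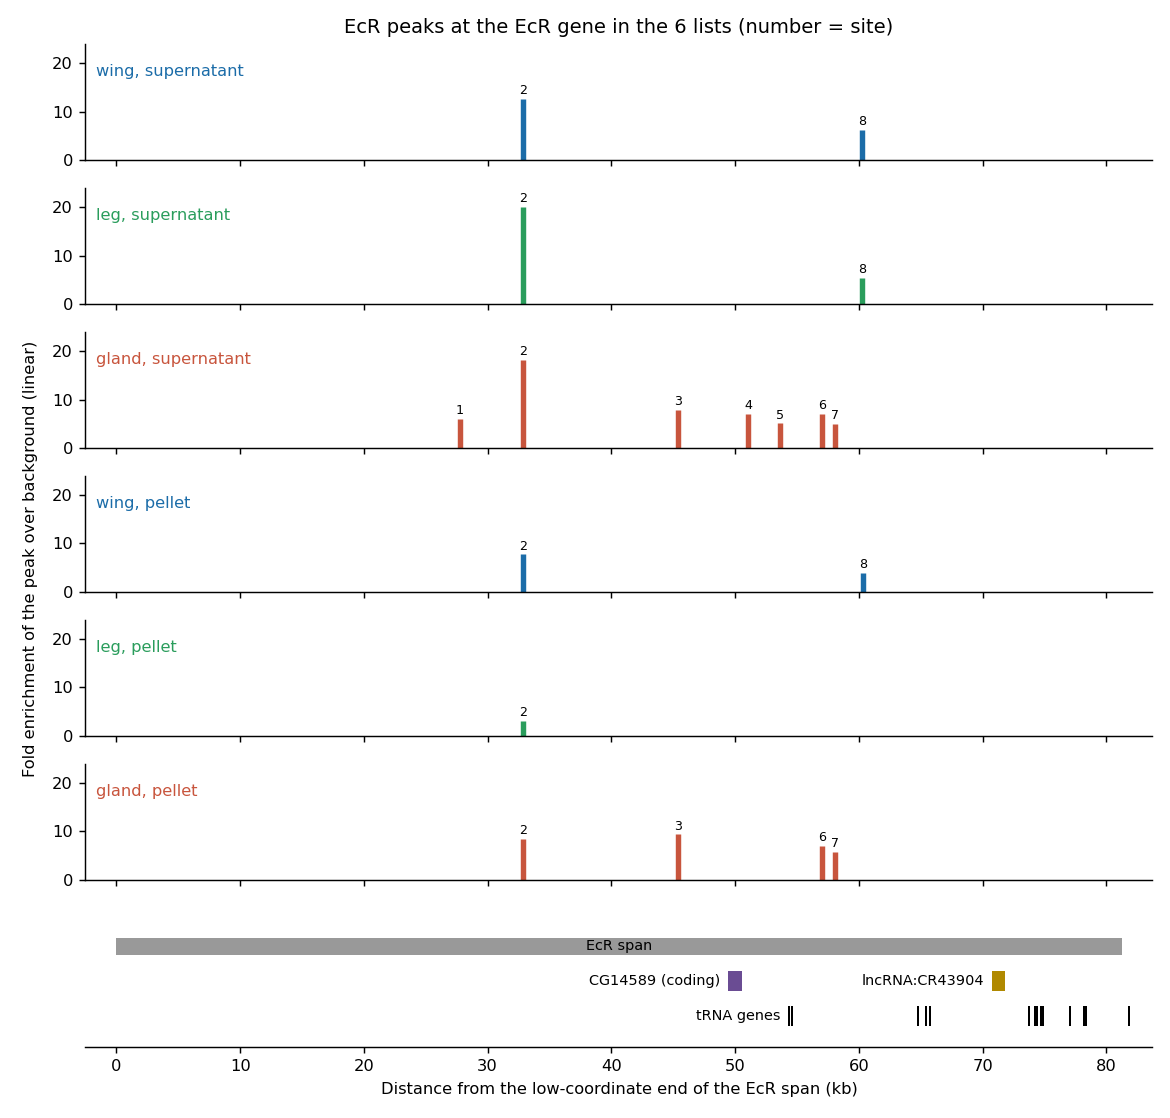
Peaks in the EcR gene, by distance in kb from the low-coordinate end of its span, in the 3 supernatant lists and the 3 pellet lists. Bar height is the peak's fold enrichment over background on a linear scale, numbers name the sites, and the lowest panel shows the EcR span with the genes inside it or within 2000 bp. Site 2 appears in all 6 lists, sites 1 and 3 to 7 in gland lists alone, and site 8 in both wing lists and the leg supernatant list.

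In each list but the gland pellet, the strongest peak in the gene was the shared one. Site 2, from 6120583 to 6120854, had peaks in all 6 lists, and their summits lay within 47 bp of each other, between 6120718 and 6120765. Its fold enrichment over background, the authors' own value for a peak on a linear scale, was 12.6 in the wing supernatant, 20.1 in the leg supernatant and 18.1 in the gland supernatant. By this value it ranked 290 among 1442 supernatant peaks of the wing, 177 among 1596 of the leg and 82 among 1174 of the gland. The pellet lists gave it a fold enrichment of 7.73 for the wing, 3.06 for the leg and 8.48 for the gland. The leg pellet value was low within its own list, at rank 805 of 1010. The site also had the highest mean normalised read count of the 8 in the authors' deposited table, 33.7, at or above 85.9% of all sites.

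The remaining gland peaks were weaker in the supernatant. Fold enrichments in the gland supernatant list were 6.03 at site 1, 7.88 at site 3, 6.99 at site 4, 5.05 at site 5, 7.09 at site 6 and 4.94 at site 7. The median of that whole list was 6.35, so these 6 peaks stood on either side of it. In the gland pellet the order was different: site 3 had 9.34, above site 2 with 8.48, followed by site 6 with 7.01 and site 7 with 5.80. Site 8, the disc peak, had 6.16 in the wing supernatant, 5.46 in the leg supernatant and 3.92 in the wing pellet. Fold enrichments rank peaks within a list and do not measure a change between lists.

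At 6 of its 8 sites the EcR gene had more signal in the salivary gland than in either disc. In the wing against the gland, all 8 passed an adjusted p of 0.05 in the authors' deposited table, 1 with a higher value in the wing and 7 with a higher value in the gland. Among all 3459 sites tested, 55.1% passed, 28.7% with the wing higher and 26.4% with the gland higher. In the leg against the gland, the authors' deposited table had no site of the EcR gene with a higher value in the leg and 6 with a higher value in the gland. Among all sites 52.3% passed in that comparison, 29.6% with the leg higher and 22.7% with the gland higher. The median log2 fold change of the 8 sites was -2.11 for wing over gland and -2.22 for leg over gland, computed from the authors' deposited table, against 0.46 and 0.63 over all sites. Sites 1 and 3 to 7 had peaks in gland lists alone, and peak calls and fold changes come from the same libraries. A higher gland value at these sites was therefore partly set by how they were listed. Of other sites with such peaks, 84.3% were higher in the gland than in the wing and 70.6% than in the leg. These 2 comparisons share the gland libraries and are not independent of each other. Whether replicates were dissected separately is not stated in the labels, and the deposited p-values then reflect only how these libraries spread, which may be technical.

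Site 3, from 6133131 to 6133402, had the largest difference. Its log2 fold change in the authors' deposited table was -4.50 for wing over gland (SE 0.65, DESeq2 adjusted p = 1.62e-10) and -4.11 for leg over gland (SE 0.69, adjusted p = 5.48e-08). That is a 22.7-fold and a 17.2-fold higher value in the gland than in the wing and leg. Counted from the lowest of 3459 values in the authors' deposited table, it ranked 12 for wing over gland and 9 for leg over gland. Its peak summit was at 6133291 in the gland supernatant and in the gland pellet list, and no disc list had a peak there. Its mean normalised read count in the authors' deposited table was 19.5, at or above 74.4% of all sites. The site lies inside the EcR span, 45.4 kb from its low-coordinate end.

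For wing over gland, sites 6 and 4 came next in size, while for leg over gland site 4 came next and site 1 stood above site 6. Site 4, from 6138824 to 6138979, lies 413 bp from CG14589, a coding gene nested in the EcR span. It had -3.02 for wing over gland (SE 0.66, adjusted p = 3.70e-05) and -3.06 for leg over gland (SE 0.71, adjusted p = 0.000167) in the authors' deposited table. Site 6, from 6144806 to 6145018, had -3.15 for wing over gland (SE 0.50, adjusted p = 5.24e-09) and -2.58 for leg over gland (SE 0.52, adjusted p = 1.18e-05) in the authors' deposited table. On a linear scale these are differences of 5.96-fold to 8.86-fold, all higher in the gland. Site 6 had gland peaks in the supernatant and in the pellet, with summits 10 bp apart, whereas site 4 was listed for the supernatant only.

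Sites 1, 5 and 7 completed the gland-alone group. At site 1, from 6115534 to 6115639, the authors' deposited table gave -2.37 for wing over gland (SE 0.55, adjusted p = 9.72e-05) and -2.69 for leg over gland (SE 0.61, adjusted p = 9.31e-05). At site 7, from 6145859 to 6146004, it gave -1.72 (SE 0.40, adjusted p = 8.01e-05) and -1.87 (SE 0.43, adjusted p = 0.000113) in the same order, again from the authors' deposited table. Site 7 lies 840 bp from site 6, the closest spacing in the gene. At site 5, from 6141444 to 6141602, the gland exceeded the wing in the authors' deposited table (-1.85 for wing over gland, SE 0.58, adjusted p = 0.00428). Against the leg it missed the threshold there, with -1.26 (SE 0.60, adjusted p = 0.0635) in the authors' deposited table. After centring on the median of the chromosome arms it passed, at -1.90 (adjusted p = 0.00546). It had the lowest mean normalised read count of the 8, 6.21, and lies 563 bp from a tRNA gene, the shortest such distance. None of the 8 sites overlapped any of the 13 tRNA genes in the span.

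The shared site 2 also had more signal in the gland. Its log2 fold change in the authors' deposited table was -1.30 for wing over gland (SE 0.31, adjusted p = 0.000161) and -1.45 for leg over gland (SE 0.34, adjusted p = 0.000144). The differences, 2.46-fold and 2.73-fold, were the smallest of the called gland-higher values in each comparison, and their standard errors were also the smallest. A site with a peak in every tissue list thus still differed between the gland and each disc.

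Site 8, from 6148044 to 6148478, went the other way. The wing exceeded the gland here, and the authors' deposited table gave 1.24 for wing over gland (SE 0.54, adjusted p = 0.0428), a 2.37-fold difference close to the threshold. The leg lay between the other tissues: 0.62 for leg over gland (SE 0.58, adjusted p = 0.350) and 0.62 for wing over leg (SE 0.50, adjusted p = 0.675) in the authors' deposited table, neither past it. Centred on the median of the chromosome arms, the wing over gland value was 0.82 and no longer passed (adjusted p = 0.204). Centred on the 15 other sites within 500 kb it was 0.35 (adjusted p = 0.641). This site is 435 bp long, the longest of the 8.

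**Figure D2:**
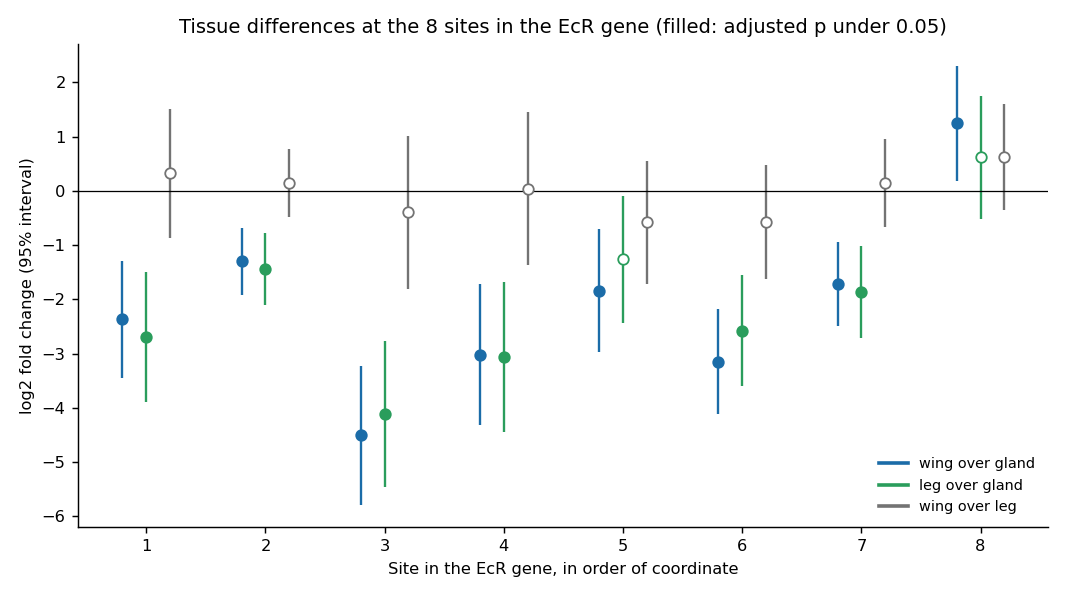
log2 fold changes of the 8 sites in the EcR gene, by site in order of coordinate, for wing over gland, leg over gland and wing over leg, from the authors' deposited table. Bars are 95% intervals from the deposited standard error, and filled points passed an adjusted p of 0.05. Sites 1 to 7 lie below 0 against the gland, site 8 lies above 0, and every wing over leg interval includes 0.

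No difference between wing and leg was called in the EcR gene. Of the 8 sites, 0 passed an adjusted p of 0.05 in the authors' deposited table from DESeq2. Among 3327 sites tested, 1.47% passed, 0.571% with the wing higher and 0.902% with the leg higher. Of the 8, 0 had an unadjusted p under 0.05, beside 12.7% of all sites. The log2 fold changes for wing over leg ran from -0.58 at site 5 to 0.62 at site 8 in the authors' deposited table. Whether these fold changes were shrunk towards 0 by the authors' fit is not stated. Fold change over error, divided by the deposited Wald score, was 0.480 to 1.35 at these sites. The intervals, computed from the deposited errors, are therefore approximate and do not match the deposited test. The interval was narrowest at site 2, where the estimate was 0.15 with a 95% interval of -0.48 to 0.78. At site 3 it was -0.40 with an interval of -1.81 to 1.02, so a 2-fold difference between the discs in either direction lies within it. The order of tissues was therefore gland highest at sites 1 to 4, 6 and 7, with wing and leg not told apart, while at site 5 the gland was told apart from the wing alone.

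The sites around EcR on 2R had medians of the other sign. The nearest other sites were 270 kb below it, inside dpr12, and 102 kb above it. For wing over gland the authors' deposited table gave 0.09 at the lower (SE 0.73, adjusted p = 0.845) and 0.89 at the upper (SE 0.48, adjusted p = 0.0915). For leg over gland these neighbours had 1.68 (SE 0.74, adjusted p = 0.0407) and 1.17 (SE 0.51, adjusted p = 0.0398) in the authors' deposited table, both higher in the leg. Within 500 kb of the gene the authors' deposited table had 15 other sites, with a median of 0.89 for wing over gland. The zinc finger gene jing was nearest to 8 of the 15, so the local medians rest largely on that gene. Of the 15, 7 were called with the wing higher, 5 at jing and 2 in ap, which sets dorsal identity in the wing disc. The gland was higher at 2, both in Adf1. Over all tested sites the shares were 28.7% with the wing higher and 26.4% with the gland higher. For leg over gland the median was 0.95 in the authors' deposited table. There the leg was higher at 7 sites, 5 of them at jing, and the gland at 1, in ZnT41F. The shares over all tested sites in that comparison were 29.6% with the leg higher and 22.7% with the gland higher. The genes near EcR were named after their values were seen.

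**Figure D3:**
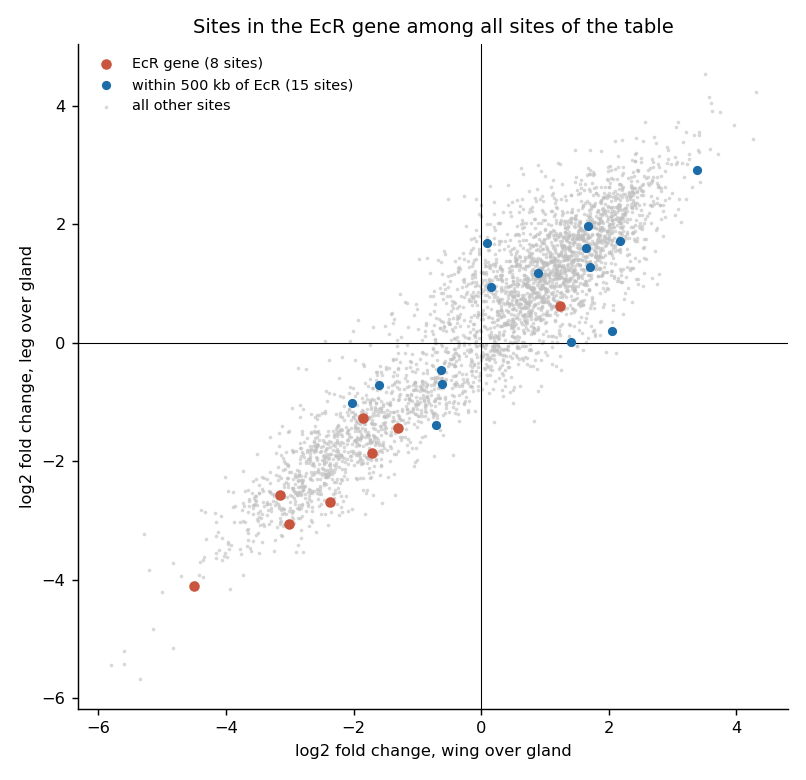
log2 fold change for wing over gland on the horizontal axis and for leg over gland on the vertical axis, for every site of the authors' deposited table. Of the 8 sites in the EcR gene, 7 lie below 0 on each axis, while the 15 sites within 500 kb have medians of 0.89 and 0.95. The axes share the gland libraries, so points follow the diagonal in part by construction.

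The gland-alone sites of EcR were set beside the other gland-alone sites of the genome. Of the 6 sites with peaks in gland lists only, the gland exceeded the wing at 6 and the leg at 5 in the authors' deposited table, a share near that of the other such sites. Of 854 elsewhere, it did so at 84.3% and 70.6%. Their median log2 fold change was -2.70 at EcR and -2.34 elsewhere for wing over gland, and -2.63 and -1.88 for leg over gland. The site shared by all tissues, with -1.30 and -1.45, is set beside 412 other sites that had peaks in all 3 tissues, with medians of 0.07 and -0.10. Of those, 28.2% were higher in the gland than in the wing and 30.1% higher than in the leg. Peak calls and fold changes come from the same libraries, so these classes are no independent evidence.

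Among genes with several sites, EcR stood near the gland end, with 6 of its 8 sites listed in the gland alone. Of all 3463 sites, 854 outside EcR were also listed in the gland alone. With 8 sites EcR ranked 32 among 1925 coding genes that had any site in their span or within 2000 bp. Of the 105 genes with at least 5 sites, 5 had a lower median for wing over gland, namely NFAT, for, Mct1, Rtnl1 and Cph, and 2 a lower median for leg over gland, Mct1 and for. The median of these gene medians was 0.12 and 0.53. In 7 of the 105 genes, the share of sites higher in the gland than in the wing was at least that of EcR. Besides EcR they were Cph, Cpr49Ac, Mct1, Root, beat-Ib and prage. The genes of these last sentences were named after their values were seen. The 5 genes whose pair of medians lay nearest to that of EcR, by Euclidean distance over these 2 comparisons, were lilli, Cph, Root, Rtnl1 and Mct1. lilli codes for a transcription elongation factor of the AF4 family and Cph for a zinc finger protein. Root codes for rootletin, Rtnl1 for a reticulon of the endoplasmic reticulum, and Mct1 for a monocarboxylate transporter. Their distances from EcR ran from 0.28 for lilli to 0.55 for Mct1 in log2 units.

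The single sites nearest to site 3 on the same 2 axes were taken from sites whose mean reached the table's median, so their direction was set by the choice. The nearest lay in the nested CG33995, CG44000 and CG44001, with -4.49 for wing over gland (SE 0.41) and -4.05 for leg over gland (SE 0.43) in the authors' deposited table. The next lay in Cph and in Fatp3, a gene of the fatty acid transport protein family, at distances of 0.20 and 0.21 in log2 units. A site 82 bp from CG42460 and a site in gce, a receptor for juvenile hormone, were the others, at 0.26 and 0.41.

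No binding was listed at usp. None of the 6 lists had a summit within 2000 bp of its span of 3514 bp, which overlaps the spans of Actn and CG4313. The nearest site of the table was 42.5 kb away, inside Unc-76, with 2.61 for wing over gland (SE 0.45, adjusted p = 2.47e-07) and 2.92 for leg over gland (SE 0.46, adjusted p = 2.91e-08) in the authors' deposited table. Unc-76 peaks were also the nearest in the 4 disc lists, with fold enrichments of 11.5 in the wing supernatant and 19.1 in the leg supernatant. In the gland lists the nearest peaks were 62.6 kb away in the supernatant and 75.1 kb away in the pellet, nearest to Hr4. Sites were found at 13.8% of the 13962 coding genes, so a gene without a site was common. The lists hold only peaks that passed the authors' caller, and weaker signal at usp could not be assessed.

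Genes of other proteins that act with EcR had called sites on the gland side alone. The list held 16 genes of coactivators, corepressors, remodellers, chaperones and related receptors, of which 7 had a total of 23 sites. The authors' deposited table had 0 of these sites with the wing higher and 15 with the gland higher, and their median was -1.57 for wing over gland. Among all sites tested, 28.7% had the wing higher and 26.4% the gland. For leg over gland it had 0 with the leg higher and 11 with the gland higher, and a median of -1.49, again from the authors' deposited table, beside 29.6% and 22.7% of all sites tested. None was called between wing and leg. tai, which codes for a coactivator of EcR, held 12 sites. Of these, 6 were higher in the gland than in the wing and 3 higher than in the leg. The largest, on 2L from 9237343 to 9237871, had -3.14 for wing over gland (SE 0.30) and -2.82 for leg over gland (SE 0.32) in the authors' deposited table. The other 6 tai sites were not called in either comparison with the gland. All 3 sites of gce and both sites of brm, the ATPase of a chromatin remodeller, were higher in the gland than in either disc. Smr, a corepressor of EcR, had a single site at -1.30 for wing over gland (SE 0.46, adjusted p = 0.0124) in the authors' deposited table. For leg over gland the Smr site had -0.18 (SE 0.48, adjusted p = 0.752) there and was not called. Hsp83, a chaperone, had 2 of 3 sites higher in the gland than in either disc, as had the only site of TP53INP, -2.74 for wing over gland (SE 0.58) in the authors' deposited table. The site of svp, an orphan receptor that can compete for Usp, had 1.12 (SE 0.53, adjusted p = 0.0574) and was not called. The other 9 genes, trr, E(bx), Hr38, bon, nej, Iswi, Hsc70-4, Met and rig, had none. Smr, brm, Hsp83, gce and TP53INP had supernatant peaks in the list of 1 tissue only. Peak calls and fold changes come from the same libraries, so the direction at these genes is no independent evidence. This list and the next were also written with earlier results of these data known.

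Ecdysone response genes had sites of either direction. Of the 15 genes listed, 14 had sites, 165 in all. The wing was higher at 37 of them and the gland at 63 in the authors' deposited table, and the median was -0.52. The shares over all tested sites were 28.7% for the wing and 26.4% for the gland. Eip75B alone held 57 of the 165 sites, with the wing higher at 16 and the gland at 27. Against the leg, Eip75B had the leg higher at 14 and the gland at 28. For leg over gland the authors' deposited table had 31 with the leg higher and 69 with the gland higher, and a median of -0.57, beside 29.6% and 22.7% of all tested sites. The early gene br, which codes for zinc finger transcription factors, had 3 of 13 sites higher in the wing and 8 higher in the gland. Eip74EF, an early gene of the ETS family, had 5 of 18 sites higher in the gland, a share near that of all tested sites. It had none higher in the wing. At Blimp-1, a transcriptional repressor, each disc exceeded the gland at all 3 sites. Between wing and leg 4 sites of the list were higher in the wing, 2 of them at Eip75B and 1 each at Hr4 and E23, and 3 were higher in the leg, at Eip75B, Eip78C and Hr78, beside 0.571% and 0.902% of all tested sites. In the authors' deposited table the E23 value was 0.98 (adjusted p = 0.00930) and the Hr78 value -2.09 (adjusted p = 0.0497).

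**Figure D4:**
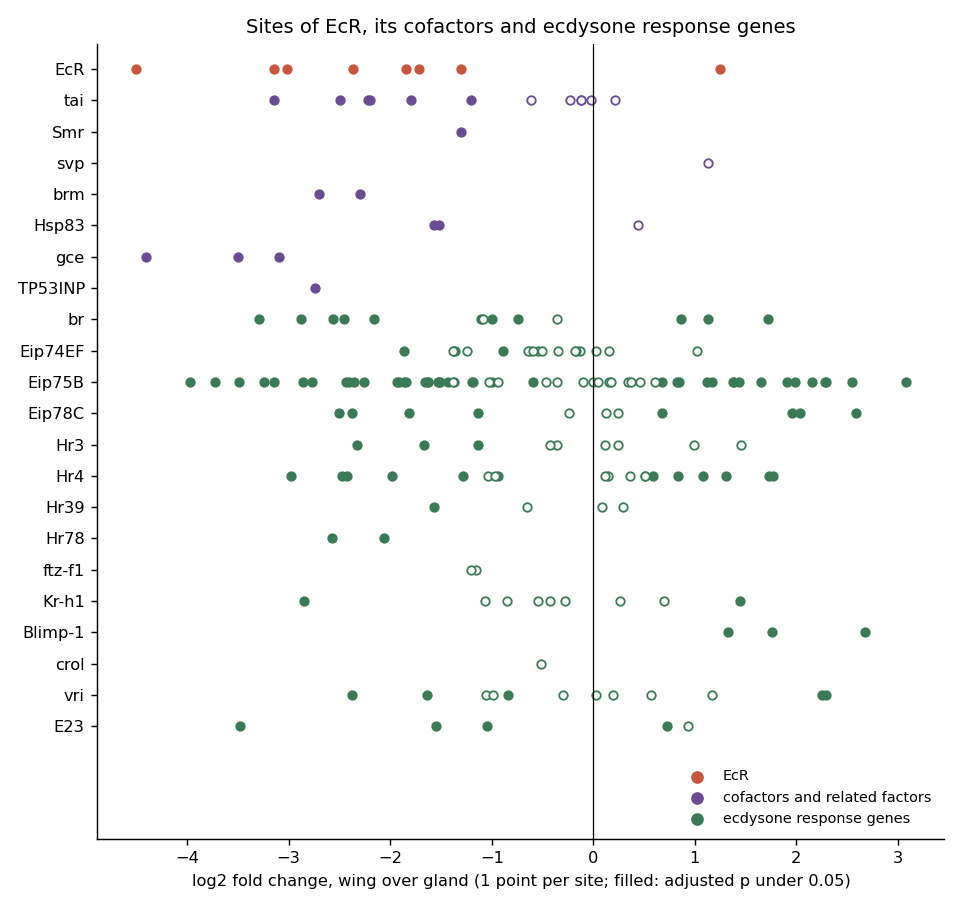
log2 fold change for wing over gland, from the authors' deposited table, of every site in EcR, in genes of its cofactors and in ecdysone response genes that had sites. Each point is a site, filled where the adjusted p was under 0.05. EcR has 7 points below 0 and 1 above, no called cofactor site lies above 0, and the response genes have 37 called sites above 0 and 63 below.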

How the data were processed

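Each CUT&RUN sample held a minimum of 50 glands, or 90 wings or legs, per the labels. The submitters' processing notes give the build dm6 and, without order or settings, MACS2 2.1.2, DESeq2, R 3.5.2, Bowtie2 2.3.4.1, bedtools 2.26, Picard 2.2.4 and SAMtools 1.9. Names of the deposited peak lists give merged replicates, removed duplicates and fragments of 20 to 120 bp. Judging by the peak names, the control of all 6 lists, also of those from the gland, was merged IgG libraries of the wing.

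The peak lists deposited by the authors give a fold enrichment, which is a linear ratio, a −log10 q-value, an integer score and, as an other kind of value, a summit offset in bp. The 3 tables hold, per the file headers, a mean normalised read count (a signal averaged over the fitted libraries), a log2 fold change with its standard error, a Wald score, a p-value and an adjusted p-value, all deposited by the authors. The libraries and fractions that entered the fit are not stated. The wing over leg value equalled the difference between the 2 gland comparisons at the 8 sites in the EcR gene. There the ratio of fold change to error, divided by the score, was 0.997 to 1.02 in the gland comparisons and 0.480 to 1.35 for wing over leg, so calls rest on the deposited adjusted p. Whether the fold changes were shrunk towards 0 is not stated.

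The tables hold no counts per library. The authors' test, adjusted over the whole table, therefore stands in for the count test that was planned. Depth is unknown, and precision is the deposited standard error, 0.313 to 0.722 at these sites. Site starts in the tables equal those of the 0-based peak lists, and coordinates are given 1-based. Overlap was at least 1 bp. The authors' overlap flags equalled the overlap computed here at every site. Intervals are the fold change ± 1.96 standard errors. For centring, a median was subtracted from the fold change, and normal p-values were adjusted by Benjamini-Hochberg over the table. The centring was tried on simulated data in which a small part of the sites changed, at random up or down. In the gland comparisons 55.1% and 52.3% of the real sites passed, so the trial does not show how centring behaves here. Gene spans come from a RefSeq table of the same assembly without strand or exons, so promoters, exons and introns were not assigned. All 31 listed genes were found in it. Python 3.11.15, pandas 2.3.3, numpy 2.4.6, scipy 1.17.1 and matplotlib 3.10.9 were used.

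Named were every site and peak of the EcR and usp intervals, the genes and sites nearest to EcR by the 2 gland comparisons, and called members of the lists of cofactors and response genes. The members and lists were chosen with earlier results of these data known. Alternatives changed the threshold, the centring, the padding, a filter on the mean, the adjustment and the peak filters.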

Additional observations from a re-analysis of the deposited data

How the results depend on the processing

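Precision rests on the deposited standard errors and on peaks called from merged replicates. No paired analysis was possible because the tables hold no columns per library, and for the same reason no replicate could be left out. The 8 sites called for wing against gland and the 6 called for leg against gland stayed within 1.5 times those counts with a threshold of 0.01, either centring, no padding, padding of 5000 bp and a recomputed adjustment. They also did without the site of largest change, an alternative chosen after seeing the data. Where only sites whose mean reached the table's median were used, 5 sites were left in the EcR gene, and all 5 were called for wing against gland. No alternative called a site between wing and leg, and neither padding of 5000 bp nor the q threshold gave usp a peak. Of the log2 fold changes, site 8 lost its call for wing over gland and site 5 gained one for leg over gland under either centring. No sign of a called value turned. With a −log10 q of 10 or more, the EcR gene kept 1 peak each in the wing, leg and gland supernatant lists, 1 in the wing pellet, 0 in the leg pellet and 2 in the gland pellet. In equally long lists the leg supernatant had 1. Overlap in place of summits, and no padding, left the 6 peak counts at EcR as they were. Region 2 was the only one with a peak in all 3 tissues also with summits within 100 bp and in the pellet lists.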
